A study of Mus musculus with 6 samples.

Results

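Rhox8, Rhox5 and Defb19 are 3 reproductive-tract genes of the mouse, described here in primary and metastatic tumours of the ID8-VEGF ovarian cancer model. They were picked by symbol, with the measured values in view, because Rhox8 and Defb19 lay lower in the metastatic tumour than in the primary tumour of each mouse. They are 3 of 30142 genes with a symbol of their own on the array. Each is measured by 1 probe set, and none shares its 6 values with another gene. Since the difference between metastatic and primary tumours chose the members, it is given for them as a description, with no test.

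Rhox genes encode homeodomain transcription factors and lie in a cluster on chromosome X that is used mainly in testis, epididymis, ovary and placenta. Rhox8 is known from Sertoli cells of the testis and granulosa cells of the ovarian follicle. Rhox5, first named Pem, is controlled by androgen in Sertoli cells and has a separate promoter that is used in ovary and in many tumour cell lines; DNA methylation silences much of the cluster in somatic cells. Defb19 lies on chromosome 2 and encodes a beta-defensin, a small secreted peptide of a family of antimicrobial defence, known from Sertoli cells and epididymis.

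ID8 is a line of mouse ovarian surface epithelial cells, and ID8-VEGF is a derivative that makes the vessel growth factor VEGF. It was injected under the bursa, the membrane around the ovary, so that both groups carry the same line. The primary group is 3 late-stage primary tumours, from the mice labelled C1M3, C1M5 and C2M3, and the metastatic group is 1 metastatic tumour from each of them. All RNA came from fresh frozen tissue. The labels used here give no age, strain, treatment or site of metastasis, and ID8-VEGF tumours hold host cells of the mouse beside the injected line. For the primary tumour of C2M3 the source name reads C2M2 while the title and donor label read C2M3, which were followed.

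Over the genes tested, array medians ran from 4.90 to 5.15 on the log2 scale. The 23 background control probe sets of the array, sorted by GC content, lay between 2.36 and 6.34 over the 6 arrays. The primary tumour of C1M3 stood apart from the other primary tumours over all genes, with r = 0.956 and 0.965 to them across genes. Wt1, a marker of ovarian surface epithelium and mesothelium, lay between 10.11 and 11.07. For 13 of the 15 such markers measured the mean exceeded the all-gene median. Host cells and the injected line were not told apart by these markers. Granulosa markers were mixed: Inha lay between 10.24 and 16.32, Foxl2 between 2.97 and 3.06 and Fshr between 3.96 and 4.48, and for 12 of the 22 granulosa and Sertoli genes measured the mean exceeded the all-gene median. Pgr, the progesterone receptor, lay between 4.07 and 4.21. Values of different probe sets are not set against each other below, since probes differ in response.

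A promoter window of Rhox5 is shown because Rhox5 was high in both tumours of 1 mouse. Methylation at CpG sites is also the known mode of its silencing. Rhox5 has separate promoters, and which of them this window covers was not determined. The run below is the 250 bases before the RefSeq start of Rhox5, at chrX:37754358-37754607 on the plus strand of GRCm38.p6, written 5′ to 3′ with each CpG in capitals.
Rhox5: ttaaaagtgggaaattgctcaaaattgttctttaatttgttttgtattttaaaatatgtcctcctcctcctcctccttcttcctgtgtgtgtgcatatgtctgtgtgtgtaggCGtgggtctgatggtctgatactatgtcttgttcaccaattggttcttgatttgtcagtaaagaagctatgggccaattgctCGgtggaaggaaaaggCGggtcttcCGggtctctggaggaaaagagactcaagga
It holds 4 CpG sites, where the median over 32851 RefSeq windows of the same length is 6, and 37.8% of these windows hold fewer. Letter matches were searched on both strands. CCAAT occurs 3 times, in 1 place on both strands with shared letters, and is found at least once in 33.9% of all windows. GGCGGG, the core of a GC box, occurs once, and 32.5% of windows hold at least 1 match. The half-site AGAACA of steroid receptors occurs once, on the minus strand, and is found in 16.1% of windows. GATA occurs once and is found in 53.6%. These are matches of letters, not measured sites.

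Rhox8 was lower in each metastatic tumour. Its log2 intensity was 7.36, 8.24 and 10.04 in the primary tumours of C1M3, C1M5 and C2M3. In their metastatic tumours it was 6.81, 5.82 and 6.41. The groups did not overlap: the lowest primary tumour, that of C1M3, lay above the highest metastatic tumour, from the same mouse. Within mice the difference, metastatic minus primary, was -0.55, -2.42 and -3.62, or 1.46-fold, 5.33-fold and 12.3-fold lower. The mean difference was -2.20 ± 1.55 (SD, n = 3 mice). The step was larger where the level in the primary tumour was higher. The 3 metastatic tumours had an SD of 0.50 against 1.36 for the primary tumours. Each Rhox8 value lay above all background probe sets of its array. The metastatic margin was small in C1M5 (5.82, highest background probe set 5.65) and C2M3 (6.41 against 6.25). For C1M3 it was wider (6.81 against 5.31). Levels so close to background may make the steps of C1M5 and C2M3 smallest sizes and narrow the metastatic SD. The value nearest to the choice threshold of no difference was that of C1M3.

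Defb19 was lower in each metastatic tumour as well, by a step that was at least 4-fold in each mouse. Its log2 intensity was 10.60, 7.39 and 11.76 in the primary tumours of C1M3, C1M5 and C2M3. It was 8.28, 5.12 and 7.99 in the metastatic tumours of the same mice. The groups overlapped, because the primary tumour of C1M5 lay below the metastatic tumours of the other mice. The differences were -2.31, -2.28 and -3.77, or 4.97-fold, 4.85-fold and 13.6-fold lower, with a mean of -2.79 ± 0.85 (SD, n = 3 mice). Both tumours of C1M5 were the lowest of their group, and its metastatic tumour lay 0.03 above the array median and below 2 of the 23 background probe sets. A level this dim gives the step in C1M5 as a smallest size only.

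Rhox5 was high in both tumours of 1 mouse and between 5.38 and 5.96 in the other 4 tumours. Its log2 intensity was 5.96, 9.40 and 5.38 in the primary tumours of C1M3, C1M5 and C2M3, and 5.81, 11.03 and 5.91 in the paired metastatic tumours. Both tumours of C1M5 were high. In the other 4 tumours, 0 or 1 of the 23 background probe sets of the array lay above Rhox5. The differences within mice were -0.15, 1.62 and 0.53, a mean of 0.67 ± 0.89 (SD, n = 3 mice), so that Rhox5 did not share the direction of Rhox8. In C1M5, Rhox5 was 3.08-fold higher in the metastatic tumour while Rhox8 was 5.33-fold lower.

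**Figure D1:**
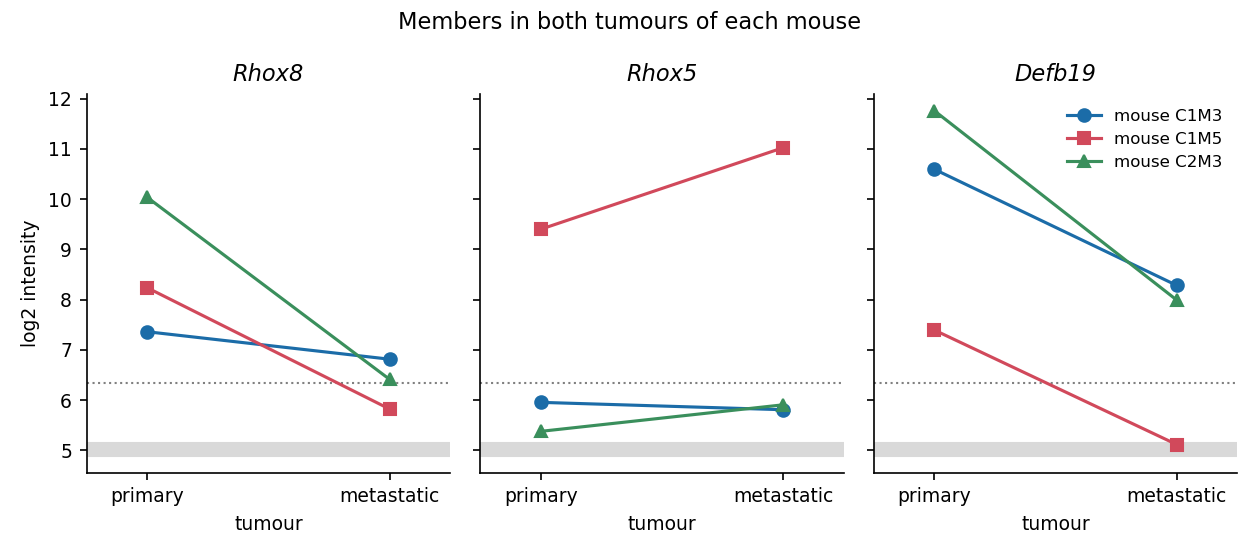
Log2 intensity of Rhox8, Rhox5 and Defb19 in the primary and metastatic tumour of each mouse, 1 point per array and 1 line per mouse; the grey band spans the array medians (4.90 to 5.15) and the dotted line is the highest background probe set of any array (6.34). All lines of Rhox8 and Defb19 fall, while Rhox5 is high in both tumours of C1M5 alone.

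Over all 30142 genes, 8.64% were lower in the metastatic tumour of all 3 mice, as Rhox8 and Defb19 were by choice, and 2.84% had groups that did not overlap with the metastatic side lower, as for Rhox8. A mean at least 4-fold lower was found in 0.106% of genes, 32 in number, among them Rhox8 and Defb19. Defb19 was the 1 gene of all tested that was at least 4-fold lower in each of the 3 mice (0.00332%), as deposited, with arrays centred on their medians and after quantile normalization. The same contrast chose Rhox8 and Defb19, so these shares describe them and are no separate result. In C1M5 the step of Defb19 rests on a metastatic value below 2 of the 23 background probe sets. With limma, 0 genes (0% lower and 0% higher) passed an adjusted p of 0.05, the smallest being 0.407. Limma gave 867 higher and 402 lower genes below an unadjusted p of 0.05, or 453 higher and 1123 lower with arrays centred. Centring moved the median difference of all genes from 0.02 to -0.09, and the differences of Rhox8, Rhox5 and Defb19 were then -2.30, 0.56 and -2.89. A lower metastatic mean was found in 43.9% of all genes as deposited, 69.6% with arrays centred and 56.4% after quantile normalization. The list counts by direction below use the values as deposited and are to be read beside these shares.

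The difference between mice was not used to choose the members and was tested over all genes with limma, with tissue as the other term. This test was added after the values were seen. The mean log2 intensity of Rhox5 over both tumours was 5.88 in C1M3, 10.21 in C1M5 and 5.64 in C2M3 (limma unadjusted p = 0.00473, adjusted p = 0.656). For Defb19 the means were 9.44, 6.25 and 9.88, with C1M5 lowest (limma unadjusted p = 0.00892, adjusted p = 0.667). For Rhox8 they were 7.09, 7.03 and 8.22 (limma unadjusted p = 0.426, adjusted p = 0.943). No gene passed this test after adjustment (0% of 30142), while 6.1% had an unadjusted p under 0.05.

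The rest of the Rhox cluster stayed at or below 5.53. Of 34 listed Rhox genes, 9 were measured by a probe set of their own, and the 7 beside Rhox8 and Rhox5 lay between 3.56 and 5.53. Their ranges over the 6 arrays had a median of 0.35 and reached 1.08 at most, against 4.21 for Rhox8 and 5.65 for Rhox5. Over all genes, 1.03% had a range as wide as that of Rhox8 and 0.348% one as wide as that of Rhox5. The widest of the other Rhox genes was Rhox10, which is known from germ cells. Rhox10 was at 4.68, 4.55 and 4.45 in primary tumours and 4.83, 5.53 and 4.85 in metastatic ones, in the mouse order C1M3, C1M5, C2M3. Its metastatic group lay higher without overlap, as in 4.79% of all genes, with a mean difference of 0.51 ± 0.43 (SD, n = 3 mice), and its highest value was that of the metastatic tumour of C1M5, the tumour highest in Rhox5.

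None of the 7 passed the test in either direction. The mean difference was above 0 in 6 of them and below 0 in Rhox11 (-0.15), and the median was 0.11 against 0.02 over all genes. Of all genes, 43.9% had a mean difference below 0 as deposited and 69.6% with arrays centred. Over all genes, the sign of small differences can thus change with the scaling. Rhox6 and Rhox9, which lie between and beside Rhox5 and Rhox8 in RefSeq gene order, stayed between 4.38 and 4.73 and between 4.27 and 4.62. Rhox6 differed by 0.11 ± 0.13 (SD, n = 3 mice) and Rhox9 by 0.13 ± 0.08. Rhox1 and Rhox13 differed by 0.01 and 0.11. Rhox6 and Rhox9 thus did not show the step of Rhox8 or the high values of Rhox5 in C1M5. Rhox7a, which lies directly before Rhox8, had no probe set of its own. The multi-copy Rhox2, Rhox3 and Rhox4 genes, among them the nearest genes before Rhox5, were not analysed here.

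Among beta-defensins, 38 genes beside Defb19 were measured. Their ranges over the arrays had a median of 0.73 and reached 1.88 in Defb39, while Defb19 had 6.65, a range matched by 0.159% of all genes. None of the 38 passed the test, 13 had a lower and 25 a higher mean in metastatic tumours, and the median difference was 0.13. Without the primary tumour of C1M3, 6 had a lower mean. Defb36, second after Defb19 in RefSeq gene order, was at 7.98, 6.50 and 7.38 in the primary tumours of C1M3, C1M5 and C2M3. It was at 6.67, 6.30 and 6.18 in their metastatic tumours. Like Defb19 it was lower in all 3 mice and lowest among primary tumours in C1M5, with a mean difference of -0.90 ± 0.61 (SD, n = 3 mice; limma adjusted p = 0.842). The 2 direct neighbours of Defb19 did not follow it, Defb21 lying between 5.06 and 5.54 and Defb45 between 4.48 and 5.07.

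Other beta-defensins named by the rule had higher metastatic means. Defb18 differed by 0.70 ± 0.68 (SD, n = 3 mice), Defb5 by 0.64 ± 0.52, Defb7 by 0.47 ± 0.26, Defb34 by 0.44 ± 0.74 and Defb46 by 0.39 ± 0.56. None of these 5 had a value above 6.56 in any array.

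**Figure D2:**
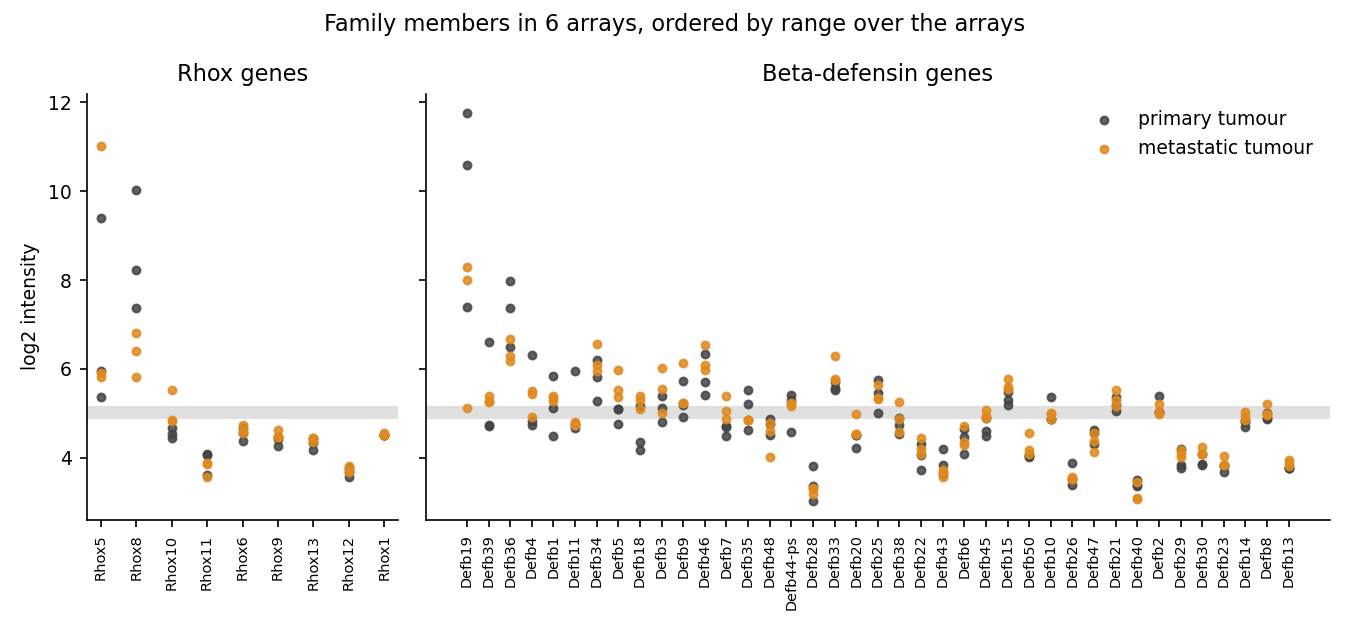
Log2 intensity of 9 Rhox genes and 39 beta-defensin genes in 3 primary (dark) and 3 metastatic (orange) tumours, ordered by range over the arrays; the grey band spans the array medians (4.90 to 5.15). Rhox5, Rhox8 and Defb19 have ranges of 5.65, 4.21 and 6.65, and no other gene shown exceeds 1.88.

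Rhox8 and Defb19 are known from supporting cells of the gonad, so markers of granulosa and Sertoli cells were read beside them. Of 22 measured markers, 0 passed the test, 14 had a lower mean and 8 a higher mean in metastatic tumours, and 8 were lower in all 3 mice with none higher in all 3. The median difference was -0.17 against 0.02 over all genes. Of all genes, 8.64% were lower and 11.1% higher in all 3 mice. A lower mean was found in 43.9% of all genes as deposited and in 69.6% with arrays centred. On average the list lay at 7.15, 6.98 and 7.29 in the primary tumours of C1M3, C1M5 and C2M3 and 7.06, 6.57 and 6.96 in their metastatic tumours.

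Inha, the inhibin alpha subunit, was at 16.07, 13.56 and 16.32 in the primary tumours of C1M3, C1M5 and C2M3 and at 15.55, 10.24 and 15.89 in their metastatic tumours. Like Defb19, Inha was lowest in both tumours of C1M5 and lower in each metastatic tumour than in its own primary tumour. Hsd17b3, the testicular enzyme that makes testosterone, was at 6.90, 7.26 and 10.27 in primary and 6.61, 6.51 and 7.02 in metastatic tumours in the same order of mice. Its highest value was in the primary tumour of C2M3, where Rhox8 was also highest. Sox9, a transcription factor of Sertoli cells, differed by -0.84 ± 0.42 (SD, n = 3 mice). Amh, anti-Mullerian hormone, differed by -0.65 ± 0.59, with all values between 3.73 and 5.15. Smaller steps were seen in Nr5a1 (-0.44 ± 0.10), the steroidogenic factor, and Gata4 (-0.34 ± 0.15), a gonadal GATA factor, each lower in all 3 mice. Limma gave an adjusted p of 0.842 or above for each of these 6 genes. Other markers of the list did not fall in this way. Fshr differed by 0.22 ± 0.30 (SD, n = 3 mice) and Foxl2 by -0.03 ± 0.06, both at low levels. The mean was higher for 8 of the 22 genes, by 0.29 at most.

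Over the 6 arrays the correlation with the mean of the granulosa and Sertoli list was r = 0.95 for Defb19, 0.77 for Rhox8 and -0.84 for Rhox5. Single markers of the list varied. With Defb19, r was 0.85 for Inha and 0.82 for Nr5a1, but 0.39 for Sox9 and 0.39 for Gata4. With Rhox8 it was 0.49, 0.48, 0.36 and 0.13 in the same order. Such correlations describe 6 arrays in which tumours of a mouse share an animal. With list means 51 were computed, for 17 lists and 3 genes. More were computed between the members and single genes, and among the members. Those given were chosen after the values were seen. In whole tumours, fewer cells of a type and less RNA per cell cannot be told apart.

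Among theca and luteal markers, the metastatic mean was lower for 4 of 9 measured genes, or 6 without the primary tumour of C1M3, and none passed the test. Scarb1, the receptor that takes up cholesterol esters from lipoprotein, differed by -1.07 ± 0.32 (SD, n = 3 mice) and Star, which brings cholesterol into mitochondria, by -0.31 ± 0.11. Hsd3b1 and Cyp17a1, enzymes of steroid synthesis, differed by -0.50 ± 1.01 and -0.23 ± 0.61. Scarb1 correlated with Defb19 at r = 0.88 over the 6 arrays and was lowest in both tumours of C1M5. For Star the correlation with Defb19 was r = 0.11. The 13 oocyte genes lay between 3.24 and 5.53, with Bmp15 at 0.38 ± 0.60 (SD, n = 3 mice), Oosp1 at 0.34 ± 0.44, Zar1 at -0.16 ± 0.22 and Gdf9 at 0.09 ± 0.16. The 12 oviduct and epididymis genes lay between 3.51 and 5.58, with Pax8 at -0.15, Lcn5 at 0.14, Lcn8 at 0.12 and Spag11a at 0.11. Epididymis, a known site of Defb19, is an organ of males, and the line was injected at the ovary. The list also holds oviduct markers, among them Pax8, and the cause of its low values was not tested.

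Fat cell markers moved with Rhox8. Each of the 9 adipocyte genes measured had its lower mean on the metastatic side (median -1.95), and none passed the test. On average the list lay at 5.92, 8.82 and 11.03 in the primary tumours of C1M3, C1M5 and C2M3 and between 5.76 and 6.14 in metastatic tumours. Its correlation over the arrays was r = 0.94 with Rhox8, 0.50 with Defb19 and -0.11 with Rhox5. Adipoq, the fat cell hormone adiponectin, was at 5.80, 10.59 and 13.21 in the primary tumours of C1M3, C1M5 and C2M3 and between 5.75 and 6.09 in the metastatic tumours. The largest differences of the list were those of Retn (-5.02 ± 4.57, SD, n = 3 mice), Adipoq (-3.92 ± 3.92), Cidec (-3.64 ± 3.53) and Fabp4 (-3.50 ± 4.01). In mouse C1M3, whose primary tumour had a list mean near that of the metastatic tumours, the difference of Rhox8 was -0.55 and that of Defb19 was -2.31. The part of fat tissue in the difference of Rhox8 was not tested.

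Endothelial, smooth muscle and fibroblast markers also varied between tumours. Their list means were highest in the primary tumour of C2M3 (8.51, 8.0 and 10.73), the tumour highest in Rhox8 and Defb19, and in the primary tumour of C1M3 they were 6.57, 5.77 and 6.82. Cdh5 differed by -0.85 ± 2.08 (SD, n = 3 mice), Tek by -0.72 ± 0.97, Kdr by -0.55 ± 1.81 and Pecam1 by -0.52 ± 1.62 among vessel genes. Among muscle genes, Cnn1 differed by -1.08 ± 1.27 (SD, n = 3 mice), Des by -1.06 ± 0.73, Myh11 by -1.04 ± 1.02 and Acta2 by -0.52 ± 1.71. Dpt, Col1a1, Col1a2 and Lum, of the matrix, differed by -2.14, 0.59, 0.55 and -0.43. For Rhox8, the correlation over the arrays was r = 0.79 with the endothelial, 0.83 with the smooth muscle and 0.58 with the fibroblast list mean. For Defb19 the same values were 0.63, 0.37 and 0.19. Of 7 fibroblast genes 4 had a lower metastatic mean, and all 7 had one without the primary tumour of C1M3. The part of these cell types in the differences of Rhox8 and Defb19 was not tested.

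Macrophage genes differed between mice, and their group difference rested on the primary tumour of C1M3. The list medians of the difference within mice were 1.67, -0.07 and 0.28 in the mouse order C1M3, C1M5, C2M3. All 10 macrophage genes had a higher metastatic mean, with Adgre1 at 1.03 ± 1.21 (SD, n = 3 mice), C1qb at 0.83 ± 1.80, Csf1r at 0.81 ± 1.17 and Lyz2 at 0.80 ± 2.01. Without the primary tumour of C1M3, 7 of the 10 had a lower mean, and Adgre1 lay at 0.18 and C1qb at -0.36. Of 7 T and NK cell genes, 5 had a higher mean, with Cd3e at 0.52 ± 0.49 (SD, n = 3 mice), Cd3g at 0.38 ± 0.27 and Cd3d at 0.27 ± 0.26, while Cd4 lay at -0.18 ± 0.32. The correlation with the macrophage list mean was r = 0.15 for Rhox8 and -0.25 for Defb19. The means of all 9 cell cycle genes were lower, with Mki67 at -0.97 ± 0.90 (SD, n = 3 mice), Plk1 at -0.97 ± 0.70, Tpx2 at -0.96 ± 0.88 and Cdc20 at -0.91 ± 0.79. Within mice the list medians were -1.26, 0 and -0.31. Without the primary tumour of C1M3, 4 of the 9 had a lower mean, and Mki67 lay at -0.45 and Cdc20 at -0.33. The correlation with the cell cycle list mean was r = -0.03 for Rhox8 and 0.23 for Defb19. No gene of these lists passed the test.

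**Figure D3:**
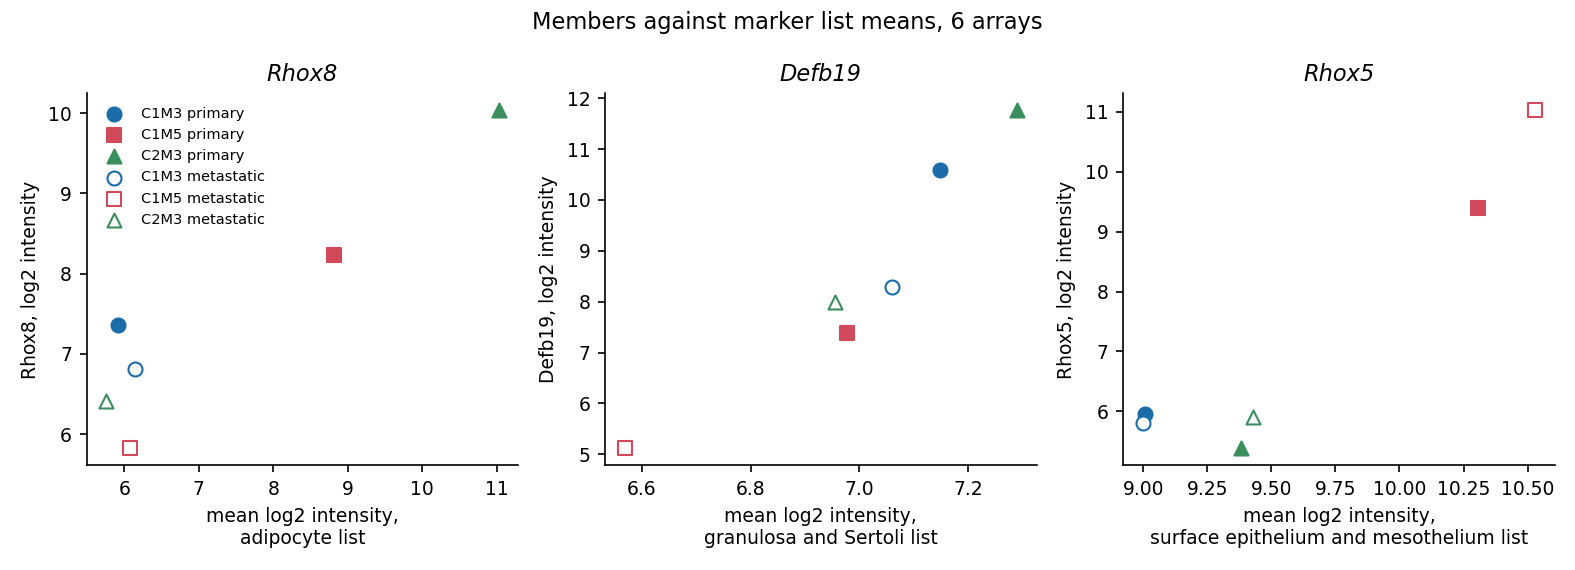
Each panel plots 1 member against the mean log2 intensity of a marker list in the 6 arrays, with filled symbols for primary and open symbols for metastatic tumours and a colour for each mouse. Rhox8 rises with the adipocyte list (r = 0.94), Defb19 with the granulosa and Sertoli list (r = 0.95) and Rhox5 with the surface epithelium and mesothelium list (r = 0.94), where both tumours of C1M5 are set apart.

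Rhox5 moved with the list mean of markers of ovarian surface epithelium and mesothelium, the origin of ID8 cells, but not with each gene of the list. On average the list lay at 9.01, 10.31 and 9.38 in the primary tumours of C1M3, C1M5 and C2M3 and 9.0, 10.53 and 9.43 in their metastatic tumours, so that both tumours of C1M5 were highest. The correlation of r = 0.94 with Rhox5 rests on these 2 tumours. Msln, the surface protein mesothelin, was at 7.21, 10.91 and 8.02 in primary and 7.69, 11.13 and 7.15 in metastatic tumours, in the mouse order C1M3, C1M5, C2M3. Like Rhox5, Msln was set apart in C1M5. Its mean difference was -0.06 ± 0.71 (SD, n = 3 mice). Upk1b, a uroplakin of mesothelium, was highest in C1M5 at 14.08 and 14.57, but was also high in C2M3 at 12.56 and 13.06, where Rhox5 was at 5.38 and 5.91. Wt1 was highest in the metastatic tumour of C1M3 at 11.07. In the primary and metastatic tumours of C1M5 it was at 10.59 and 10.12.

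In this list the metastatic mean was lower for 7 and higher for 8 of 15 genes, and none passed the test. Pkhd1l1 and Upk1b differed by 1.18 ± 0.43 (SD, n = 3 mice) and 0.88 ± 0.67, and the keratins Krt18 and Krt8 by -0.85 ± 0.54 and -0.61 ± 0.84. Inha, which is in the granulosa and Sertoli list, ran opposite to Rhox5, with r = -0.97 over the arrays. Its lowest values were those of the tumours of C1M5.

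Regulators of the cluster were read for the same arrays. For 11 of 12 enzymes of DNA methylation and heterochromatin the metastatic mean was lower, or for 7 without the primary tumour of C1M3, and none passed the test. The share of all genes with a lower mean was 43.9% as deposited and 69.6% with arrays centred. Dnmt1, the maintenance methyltransferase, was at 9.07, 7.94 and 7.94 in primary and 8.17, 7.87 and 7.58 in metastatic tumours, in the mouse order C1M3, C1M5, C2M3. The tumours of C1M5, high in Rhox5, thus had Dnmt1 values inside the span of the other 4 tumours. Hells, Uhrf1 and Dnmt3a differed by -0.37 ± 0.79 (SD, n = 3 mice), -0.33 ± 0.13 and -0.27 ± 0.24. The correlation of the list mean with Rhox5 was r = -0.19.

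The 14 germline genes that promoter methylation keeps silent in other cells lay between 3.43 and 5.42 in all arrays, also in both tumours of C1M5. Their metastatic mean was lower in 10, or in 4 without the primary tumour of C1M3. Magea4, a cancer-testis gene, differed by -0.41 ± 0.06 (SD, n = 3 mice), Rpl10l by 0.14 ± 0.37, the germ cell helicase Ddx4 by -0.10 ± 0.17 and Sycp1, of the synaptonemal complex, by -0.09 ± 0.08. Among 16 hormone receptors and gonadal transcription factors, 11 had a lower mean in metastatic tumours and none passed the test. Emx2, a homeobox gene of the early gonad, was at 6.47, 4.65 and 4.99 in primary and 5.24, 3.99 and 4.23 in metastatic tumours, a difference of -0.88 ± 0.30 (SD, n = 3 mice) and lowest in C1M5. Pgr differed by -0.05 ± 0.08 and Wt1 by -0.04 ± 0.59. Unc5c, a netrin receptor gene that Rhox5 is known to repress, lay between 4.29 and 4.36 and was chosen after its values were seen.

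The genes whose pattern over the arrays was most like that of Rhox8 were Lpin1, Hoxc8, Ces1d, Cluh, Hadh and Scp2, with Pearson r from 0.98 to 0.99 over the 6 arrays. Lpin1 encodes a phosphatidate phosphatase of fat synthesis, Ces1d a carboxylesterase of fat and liver, Hadh an enzyme of fatty acid oxidation and Scp2 a peroxisomal sterol carrier. Ces1d was at 7.67, 9.85 and 12.63 in primary and 7.67, 6.17 and 6.38 in metastatic tumours, in the mouse order C1M3, C1M5, C2M3. In C1M3, Lpin1 differed by -0.02, Ces1d by 0.00 and Scp2 by 0.09, where Rhox8 differed by -0.55 and the homeobox gene Hoxc8 by -0.47. Of the 2712 genes searched, 40 reached r above 0.95 with Rhox8.

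For Defb19 the most alike were Ncoa1, Bmp6, Acat1, Trim50, Mkrn1-ps1 and Tnrc18, with r from 0.96 to 0.98, and 10 genes lay above 0.95. Ncoa1 is a coactivator of steroid receptors, Bmp6 a bone morphogenetic protein that ovarian follicles also make, and Acat1 a mitochondrial thiolase. All 6 were lower in the metastatic tumour of each mouse, against 8.64% of all genes. They were picked for likeness to Defb19, so this shared direction is no separate result. Trim50 was at 7.79, 5.74 and 7.90 in primary and 6.51, 5.06 and 5.76 in metastatic tumours, in the mouse order C1M3, C1M5, C2M3, a mean difference of -1.37 ± 0.73 (SD, n = 3 mice). Bmp6 differed by -1.0 ± 0.60, and the steps of both were smaller than that of Defb19 in each mouse.

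For Rhox5 the most alike were Myl7, Scel, Slc27a6, Aldh3a1, Fxyd3 and Cxadr, each with r of 0.99, and 41 genes lay above 0.95. Each was highest in the tumours of C1M5, and the other 4 tumours lay close together, so that r rests on these 2 arrays. Scel encodes sciellin of the cornified envelope, Slc27a6 a fatty acid transporter, Aldh3a1 an aldehyde dehydrogenase and Cxadr a junction protein that serves as a virus receptor. Cxadr was at 7.93, 10.53 and 7.78 in primary and 8.23, 10.91 and 8.10 in metastatic tumours, in the mouse order C1M3, C1M5, C2M3, with a difference of 0.33 ± 0.04 (SD, n = 3 mice).

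Rhox8 and Defb19 correlated with each other at r = 0.76 over the 6 arrays, Rhox5 with Defb19 at -0.82 and Rhox5 with Rhox8 at -0.38. Both Rhox8 and Defb19 were highest in the primary tumour of C2M3 and lowest in the metastatic tumour of C1M5. They parted in the primary tumours of C1M3 and C1M5, where Defb19 was at 10.60 and 7.39 and Rhox8 at 7.36 and 8.24.

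**Figure D4:**
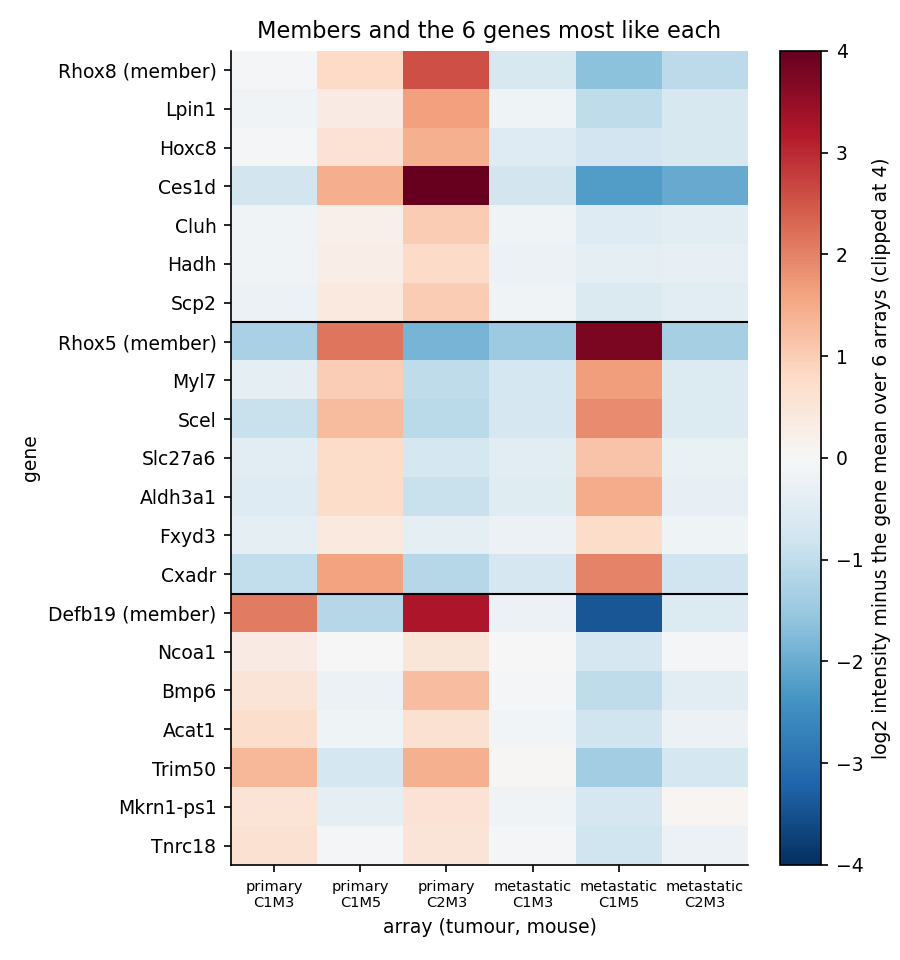
Colours give log2 intensity minus the mean of the gene over the 6 arrays, for each member and the 6 genes with the highest correlation to it; columns are arrays. The genes like Rhox8 are highest in the primary tumour of C2M3, those like Rhox5 in both tumours of C1M5, and those like Defb19 in the primary tumours of C1M3 and C2M3.

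Left-out arrays changed the sizes. Without the primary tumour of C1M3, which stood apart, the difference of group means was -2.79 for Rhox8, -2.45 for Defb19 and 0.19 for Rhox5. Without the primary tumour of C2M3 that of Rhox8 was -1.45, and without the metastatic tumour of C1M5 that of Defb19 was -1.78 and that of Rhox5 -1.05. Each group holds 3 animals, so its spread includes that between animals.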

How the data were processed

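Total RNA of 6 tumours was measured on mouse whole-transcriptome arrays, 1 array per tumour. The deposited values are log2 intensities per probe set; RMA and Transcriptome Analysis Console are named, without versions, in the submitters' processing notes. RMA background-corrects, quantile-normalizes and summarises probes, so differences are relative to the rest of each array. Depth does not apply to arrays; their number limits the precision. The array's genome build is not given in the sources used here, and scanner files were not used here.

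Of 65956 non-control probe sets, 30604 carried 1 symbol, 2146 several and 33206 none in the platform annotation. Symbols were updated through Entrez Gene identifiers with the RefSeq table of GRCm38.p6 (827 changed, 29837 of the final symbols found there). Per gene, the probe set of highest mean value was kept, which left 30142 genes with no filter on dim genes.

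The comparison used limma 3.58.1 under R 4.3.3 (lmFit and eBayes, tissue as the only term, two-sided, Benjamini-Hochberg over all genes, threshold 0.05); the fit was tested on simulated data. Pairing follows from the donor label: both tumours of a pair come from the same animal. Deviations from the group means correlated within a mouse with r = -0.052, 0.354 and 0.073 across genes for C1M3, C1M5 and C2M3. The mouse as a block, other scalings, a filter on dim genes, array weights and left-out arrays were alternatives. The test of differences between mice was added after the values were seen. The 3 members and the 17 gene lists were chosen with earlier results of these data known. Genes named beside the members are up to 4 per list with the largest absolute difference, the 3 Rhox and beta-defensin genes of highest mean, fixed defining markers, and the 6 genes most like each member by Pearson correlation over the arrays. Defb21, Defb45 and Rhox7a are named for their place beside a member in gene order. Defb39 is named for its range over the arrays. Any other gene is marked as chosen after its values were seen. Likeness was sought among 2712 genes whose mean exceeded the all-gene median, with a range of at least 1 on the log2 scale and a symbol that is no predicted gene, small RNA, chemoreceptor or antigen receptor segment.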

Additional observations from a re-analysis of the deposited data

How the results depend on the processing

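Rhox8 and Defb19 kept a lower mean in metastatic tumours under all 12 alternatives run for each. With 1 array or 1 mouse left out, the mean difference ranged from -3.02 to -1.45 for Rhox8, from -4.05 to -1.78 for Defb19 and from -1.05 to 1.91 for Rhox5, whose sign changed in 2 of its 12 alternatives, on leaving out the C2M3 primary tumour (-0.10) or the C1M5 metastatic tumour; fewer arrays enter these values. Other scalings and the median over mice gave -2.42 to -2.28 for Rhox8 and -2.89 to -2.31 for Defb19. Each member has 1 probe set, so a mean over probe sets was not run. With the mouse as a block (replicate block), limma again gave 0 genes at an adjusted p under 0.05, while 891 genes were higher and 594 lower below an unadjusted p of 0.05, and it changed no other call. No other alternative gave a gene past the threshold either; the smallest adjusted p lay between 0.174, without both tumours of C1M3, and 0.972, without both of C1M5. Of 1128 values of 94 other named genes under these alternatives, 91 moved by more than the spread between mice and 77 changed sign. Counts of list genes without the primary tumour of C1M3 were added after seeing the data. Rhox5 in both tumours of C2M3 lay below 1, and Defb19 in the metastatic tumour of C1M5 below 2, of the 23 background probe sets of the array, which limits these values. Metastatic Rhox8 lay only just above the highest background probe set in C1M5 (5.82 against 5.65) and C2M3 (6.41 against 6.25), which may limit it too.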
